A study of Mus musculus with 10 samples.

Results

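The genes described here are 36 genes of glycolysis and of the response to hypoxia-inducible factor (HIF), measured by RNA sequencing in mouse preadipocytes, the precursors of fat cells. They were chosen by name: glucose entry, the glycolytic enzymes, lactate export, and genes that hypoxia is known to induce. All 36 were found among the 32903 genes that the table's transcripts could be assigned to, and all 36 passed the filter on low counts. The cells came from inguinal subcutaneous fat of male wild-type mice, labelled WT C57 BL6. In 5 libraries the cells had been given DMSO, the vehicle, and in the other 5 they had been given 2.5 µM BPS (read here as bisphenol S, an analogue of bisphenol A) dissolved in DMSO. No age, exposure time, oxygen level or batch was stated. Nor was it stated if replicates came from different animals or dishes, so p-values measure only the spread between these libraries, which may be technical.

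Glycolysis splits glucose into pyruvate in the cytosol, and lactate dehydrogenase and the monocarboxylate transporters turn that pyruvate into lactate and carry it out of the cell. The transcription factor HIF is made of an oxygen-regulated alpha subunit and the constant partner ARNT. In normal oxygen, prolyl hydroxylases mark the alpha subunit for destruction. When oxygen falls, the subunit persists, binds short DNA elements near its targets and raises most glycolytic genes together with genes for blood vessel growth, mitophagy, pH control and collagen hydroxylation. ARNT is also the partner of the aryl hydrocarbon receptor. Hypoxia within expanding fat tissue is a known setting for these genes.

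Total estimated counts per library lay between 37920689 and 42717227, and the 36 genes took up 1.49 ± 0.009% of those assigned to genes with DMSO and 1.47 ± 0.012% with BPS (SD, n = 5 each). All 10 preadipocyte markers were tested, and their levels differed widely. With vehicle Pdgfra had 904 CPM and Dlk1 439.6 CPM, but Zfp423 9.91, Dpp4 2.46 and Pi16 2.02 CPM. The low ones were no higher than the endothelial marker Tek, at 11.1 CPM. Of the 10, edgeR called 1, Cd34, higher under BPS, and DESeq2 called 1 higher and 1 lower. Over all 14597 tested genes edgeR called 712 and DESeq2 952. CPM is the count of a gene scaled to the normalised size of its library. Of 5 markers of mature adipocytes, 4 had no more than 3 counts in any library (Lep had 0), and Plin1 had at most 5. The summed level of 6 macrophage markers was 9.43 to 15.4 CPM with vehicle and 10.3 to 18.2 CPM with BPS, with Csf1r at 0 counts, and that of 5 endothelial markers 17.04 to 22.39 and 16.35 to 22.03 CPM. For 5 mesothelial markers the sums were 9.055 to 11.02 CPM and 10.99 to 12.9 CPM, with Msln and Upk3b at 0 counts. Only 2 of them could be tested, and they went opposite ways. Krt19 was called higher under BPS, and Wt1 was lower without a call (log2 fold change -0.589, edgeR adjusted p 0.155). The 5 mural markers summed to 1039 to 1112 CPM with vehicle and 1337 to 1444 CPM with BPS, nearly all of it Acta2, and Acta2 and Cspg4 were called higher under BPS by edgeR. The call of Cspg4 (edgeR adjusted p 0.0467) was lost with limma-voom (0.0505) and without BPS replicates 4 and 5 (0.106), and that of Krt19 (0.0367) without those replicates (0.0639). The part of these marker shifts in the results below was not tested. In such bulk samples, fewer cells of a type and less RNA per cell cannot be told apart.

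The DNA in front of these genes often carried the core of the element that HIF binds. The 250 bases before each RefSeq transcription start were taken for 34 of the 36 genes, 50 windows in all, some of which overlap within a gene. Bnip3l and Ndrg1 had no entry. The core of the HIF element was searched as ACGTG or GCGTG on both strands. At least 1 core was found in 39 of the 50 windows (78%), against 38.6% of the 32851 windows of the same length for all RefSeq starts. By gene, 31 of 34 had a core in at least 1 window. No share by gene was computed over all genes, and a gene with several windows has more chances of a match. ACGTG lies inside CACGTG, the E-box bound by other factors, so a CACGTG gives a match on each strand. CACGTG itself was in 6 of the 50 windows, or 12%, against 6% of all windows. A match is a description of letters and not a bound site.

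The windows below belong to 3 genes that changed under BPS (Gpi1, Bnip3 and Adm) and to 3 HIF targets that did not pass the test (Pgk1, Ankrd37 and Car9). They are RefSeq sequences of GRCm38.p6, written 5′ to 3′ on the strand of the gene, with every ACGTG or GCGTG match of either strand in capitals. Gpi1 lies at chr7:34230337-34230586 (minus strand), Bnip3 at chr7:138909507-138909756 (minus) and Adm at chr7:110627407-110627656 (plus). Pgk1 lies at chrX:106186850-106187099 (plus), Ankrd37 at chr8:45999851-46000100 (minus) and Car9 at chr4:43506776-43507025 (plus).
Gpi1: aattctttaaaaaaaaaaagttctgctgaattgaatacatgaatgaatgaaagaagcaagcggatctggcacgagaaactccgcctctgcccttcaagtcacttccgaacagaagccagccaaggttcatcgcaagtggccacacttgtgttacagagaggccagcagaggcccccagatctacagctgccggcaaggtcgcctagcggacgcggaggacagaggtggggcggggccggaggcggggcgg
Bnip3: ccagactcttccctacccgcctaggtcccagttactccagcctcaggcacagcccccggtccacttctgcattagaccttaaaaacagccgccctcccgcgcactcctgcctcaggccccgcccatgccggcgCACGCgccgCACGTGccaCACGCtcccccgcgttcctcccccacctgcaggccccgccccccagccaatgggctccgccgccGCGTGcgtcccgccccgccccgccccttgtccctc
Adm: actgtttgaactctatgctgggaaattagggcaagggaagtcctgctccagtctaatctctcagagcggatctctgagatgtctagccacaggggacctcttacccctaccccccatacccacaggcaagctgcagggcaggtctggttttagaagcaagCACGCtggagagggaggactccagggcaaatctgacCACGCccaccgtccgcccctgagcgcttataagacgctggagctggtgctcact
Pgk1: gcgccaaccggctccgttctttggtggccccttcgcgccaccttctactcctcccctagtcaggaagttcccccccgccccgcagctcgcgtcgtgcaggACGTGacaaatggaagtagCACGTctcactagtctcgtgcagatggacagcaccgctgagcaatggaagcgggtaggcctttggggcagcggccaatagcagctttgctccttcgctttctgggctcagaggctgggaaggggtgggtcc
Ankrd37: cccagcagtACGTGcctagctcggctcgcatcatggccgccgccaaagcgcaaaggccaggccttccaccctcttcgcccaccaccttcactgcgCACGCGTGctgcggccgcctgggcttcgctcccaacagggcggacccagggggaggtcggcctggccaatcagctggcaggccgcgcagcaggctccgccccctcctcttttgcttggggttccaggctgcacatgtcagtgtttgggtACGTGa
Car9: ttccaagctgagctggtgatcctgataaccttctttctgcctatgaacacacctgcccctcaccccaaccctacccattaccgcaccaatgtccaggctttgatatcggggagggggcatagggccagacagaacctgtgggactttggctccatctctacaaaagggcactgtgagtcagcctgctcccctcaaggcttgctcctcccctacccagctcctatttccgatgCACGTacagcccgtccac

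The Gpi1 window held 0 matches. The Bnip3 window held 5, of which 2 form the CACGTG, the Adm window 2, the Pgk1 window 2, the Ankrd37 window 4 and the Car9 window 1. The windows of the changed genes thus ranged from 0 to 5 matches and those of the 3 others from 1 to 4.

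Under BPS 4 of the 36 genes changed, each by less than 10%. The test was the quasi-likelihood F test of edgeR, with p-values adjusted by Benjamini and Hochberg over 14597 genes and a threshold of 0.05, and it called 1 gene higher and 3 lower. Adm, the vasodilator peptide adrenomedullin, rose, while the glycolytic enzyme gene Gpi1 and the mitophagy receptor genes Bnip3 and Bnip3l fell. These 4 calls are 11.1% of the genes, against 4.88% of all tested genes called in either direction, 3.06% called higher and 1.82% called lower. Of all calls 62.8% were higher, and 45.9% when libraries were scaled by size alone. At an unadjusted p under 0.05 there were 7 of the 36, against 18.8% of all tested genes. The groups did not overlap for 1 gene that was higher (Adm) and 2 that were lower (Gpi1 and Bnip3l), against 4.19% and 2.71% of all tested genes. The 100 transcripts of these genes that passed the filter on low counts were tested one by one. They gave 0 calls by edgeR (7 at an unadjusted p under 0.05), which called 0.335% of all tested transcripts. limma-voom gave 0 as well and called 0.338% of all, and DESeq2 gave 5 and called 2.14% of all. No share of all transcripts was computed at the unadjusted p. Some transcripts of Vegfa and of Ldhb shared a single estimate, so the 100 are not all separate. Of the 23 glycolytic and lactate genes 1 was called, and of the 13 HIF pathway genes and targets 3. The fitted log2 fold change was negative in 25 of the 36 genes (69.4%), against 49.8% of all tested genes. Its median was -0.011 over the 36 genes and 0.00039 over all tested genes, and the median size without sign was 0.035 and 0.056. For 24 of the 36 genes the 95% interval of the change lay wholly within 10% of no change, 2 of the called genes (Bnip3 and Bnip3l) among them.

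**Figure D1:**
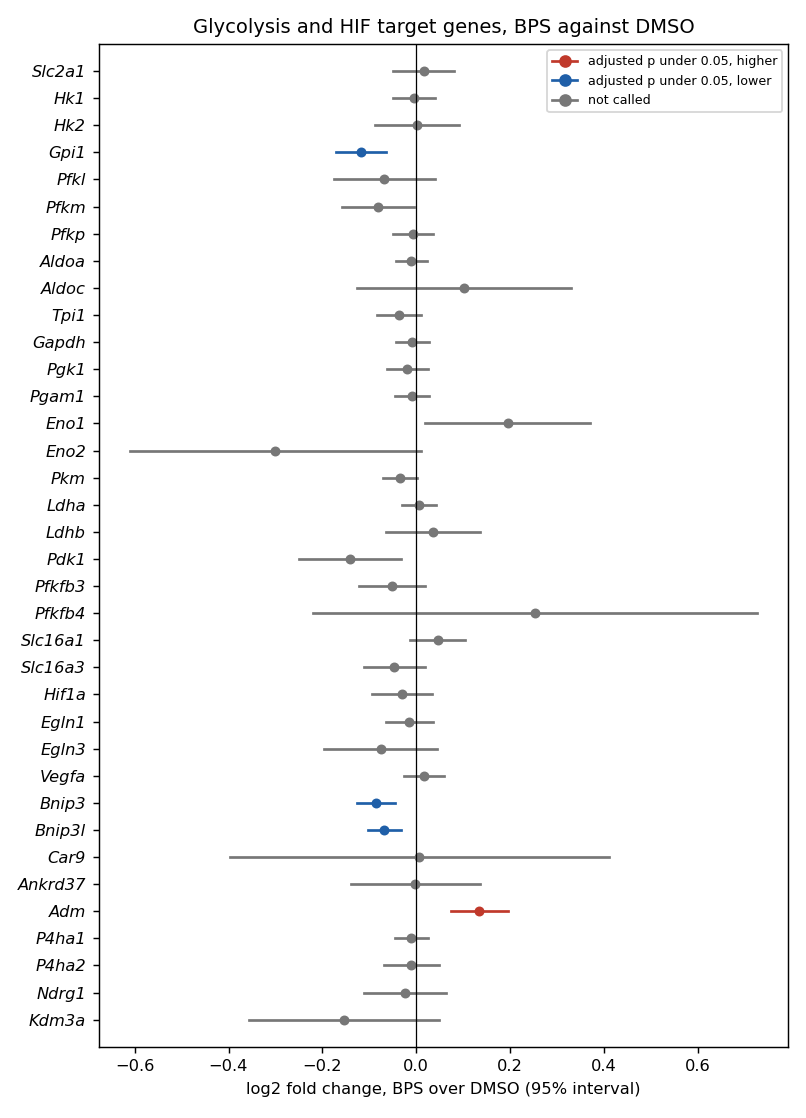
Log2 fold change of each of the 36 genes, BPS over DMSO (horizontal axis), with its 95% interval from the edgeR fit. The 3 genes called lower (blue) and the 1 called higher (red) have log2 fold changes between -0.12 and 0.13, closer to zero than several uncalled genes with wide intervals such as Pfkfb4 and Eno2.

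Glucose enters through the transporter GLUT1, encoded by Slc2a1. It stood at 170.3, 169, 169, 163 and 167 CPM with vehicle and at 164, 184, 165, 170.2 and 165 CPM with BPS. BPS replicate 2 was the highest of all 10 libraries and the other BPS values fell among the DMSO values. The log2 fold change was 0.016 (standard error 0.030, edgeR adjusted p 0.835). Of the hexokinase genes, whose enzymes trap glucose in the cell, Hk1 had 160.3 ± 3.17 CPM with vehicle and 159.9 ± 3.86 CPM with BPS (SD, n = 5 each). Hk2, the form that hypoxia induces, had 61.8, 60.5, 62.6, 60.6 and 59.6 CPM with vehicle and 57.7, 68.3, 59.3, 58.8 and 61.5 CPM with BPS. Again BPS replicate 2 was the highest library, and the groups overlapped.

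Gpi1, the isomerase that turns glucose 6-phosphate into fructose 6-phosphate, was the 1 called gene among the 23 glycolytic and lactate genes. Its values were 778, 759, 758, 746 and 751 CPM with vehicle, and 694, 736, 703, 698 and 662 CPM with BPS. Every BPS library lay below every DMSO library. Such separation, in either direction, was seen in 6.9% of all tested genes. Gpi1 fell by 7.86%, a log2 fold change of -0.12 (standard error 0.02, edgeR adjusted p 0.0174). The call held in 19 of 20 alternatives, with adjusted p between 0.000117 and 0.0705. It was lost (log2 fold change -0.093, adjusted p = 0.0705) when BPS replicates 4 and 5 were left out together. These alternatives do not include the test of unsummed transcripts, where the 1 transcript of Gpi1 was not called (edgeR adjusted p 0.153). That transcript holds all counts of Gpi1, and its log2 fold change was -0.117. The 2 tests thus use the same counts and differ in the fit and in the adjustment, made over 37588 transcripts.

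The 3 phosphofructokinase genes encode the subunits of the committing step. Pfkl had 53.1 ± 3.19 CPM with vehicle and 50.7 ± 3.21 CPM with BPS, and Pfkp 102 ± 1.38 and 101 ± 2.29 CPM (SD, n = 5 each). Pfkm, the muscle-type subunit, had 46.5 ± 1.14 and 43.96 ± 2.29 CPM, a log2 fold change of -0.08 (standard error 0.04) that missed the threshold (edgeR adjusted p 0.242). Of the aldolases, Aldoa held 1309 ± 8.58 and 1299 ± 26.4 CPM, and Aldoc only 1.94 ± 0.229 and 2.08 ± 0.17 CPM on 61 to 86 counts per library. Tpi1, the triose phosphate isomerase, had 633 ± 6.90 and 617 ± 21.1 CPM (edgeR adjusted p 0.413).

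None of the 6 genes of the second phase of glycolysis, where ATP is made, was called by edgeR, against 4.88% of all tested genes. At an unadjusted p under 0.05 there was 1 of them (Eno1), against 18.8% of all tested genes. DESeq2 and limma-voom called none of them either. Gapdh had 2607 ± 14.6 CPM with vehicle and 2592 ± 60.5 CPM with BPS (SD, n = 5 each). Pgk1, phosphoglycerate kinase and a standard HIF target, had 1065, 1047, 1043, 1039 and 1070.0 CPM with vehicle and 1036, 1087, 1035, 1033 and 1004 CPM with BPS. The groups overlapped through BPS replicate 2, and the log2 fold change was -0.019 (standard error 0.020, edgeR adjusted p 0.678). Pgam1, phosphoglycerate mutase, had 816 ± 12.5 and 811 ± 15.96 CPM. Pkm, pyruvate kinase, had 1505, 1514, 1517, 1504 and 1521 CPM with vehicle and 1478, 1533, 1470, 1471 and 1433 CPM with BPS. In 4 of 5 BPS libraries Pkm lay below all DMSO libraries, and in BPS replicate 2 above them. Its log2 fold change was -0.034 (standard error 0.017, edgeR adjusted p 0.296).

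The enolase genes varied more between libraries. Eno1 had 1021, 1030, 1038, 1062 and 1159 CPM with vehicle and 1079, 1182, 1038, 1333 and 1445 CPM with BPS. BPS replicates 4 and 5 stood highest. The log2 fold change of 0.195 (standard error 0.08) missed the threshold (edgeR adjusted p 0.215). A predicted transcript that the RefSeq table gives no gene ran opposite to it, at 937, 921, 898, 856 and 808 CPM with vehicle and 877, 832, 917, 613 and 433 CPM with BPS. The sum of both was 1946 ± 19.5 CPM with vehicle and 1950.0 ± 48.2 CPM with BPS, and its coefficient of variation over the 10 libraries was 1.78%, against 12.7% for Eno1 alone. Fitted as 1 gene, the sum had a log2 fold change of 0.0029 (standard error 0.017, edgeR adjusted p 0.954). The transcript was picked after the values had been seen and its gene is not known here. Adding the near-identical copy Eno1b, at 263 to 335 counts per library, left Eno1 uncalled (edgeR adjusted p 0.218).

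**Figure D2:**
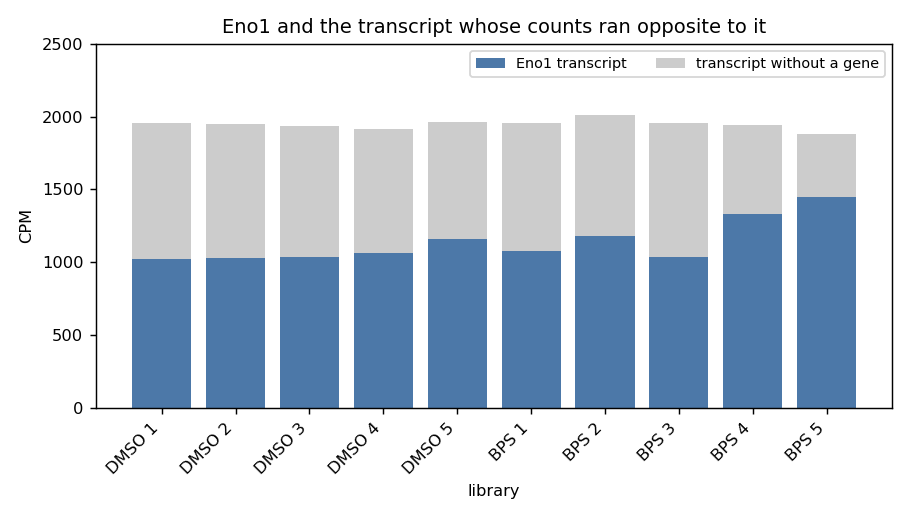
CPM of the Eno1 transcript (blue) and of the transcript without a gene (grey), stacked, in each library. The blue part is 1021 CPM in vehicle replicate 1 and 1445 CPM in BPS replicate 5, while the stacked total lies between 1879 and 2014 CPM.

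Eno2, the neuronal-type enolase that hypoxia also induces, had 12.7, 10.9, 10.7, 12.7 and 9.91 CPM with vehicle and 8.53, 11.8, 8.71, 10.8 and 6.37 CPM with BPS. The groups overlapped, with BPS replicate 5 lowest, and the log2 fold change was -0.30 (standard error 0.14, edgeR adjusted p 0.282). Another transcript without a gene ran opposite to Eno2. With it added, the levels were 16.4 ± 0.194 CPM with vehicle and 15.85 ± 0.888 CPM with BPS, the log2 fold change -0.048 (standard error 0.04) and the adjusted p 0.599 by edgeR. This transcript, too, was picked after its values had been seen.

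At the fate of pyruvate, Ldha encodes the subunit that favours making lactate. It had 1285, 1297, 1277, 1264 and 1313 CPM with vehicle and 1299, 1330.0, 1295, 1283 and 1259 CPM with BPS, a log2 fold change of 0.0066 with a 95% interval of -0.03 to 0.04 (edgeR adjusted p 0.886). Ldhb, the heart-type subunit, had 14.4 ± 0.632 and 14.7 ± 0.739 CPM (SD, n = 5 each). Pdk1, the kinase that shuts pyruvate out of the citric acid cycle, had 66.9, 55.8, 62.6, 60.3 and 62.6 CPM with vehicle and 50.8, 57.4, 55.2, 59.4 and 56.7 CPM with BPS. Without DMSO replicate 2 the lowest DMSO value exceeded the highest BPS value, and with it the groups overlapped. The log2 fold change of -0.14 (standard error 0.05) had a 95% interval of -0.25 to -0.03 but an adjusted p of 0.139 by edgeR, so it was not called.

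The bifunctional enzymes set fructose 2,6-bisphosphate, the activator of phosphofructokinase. Pfkfb3 had 57.25 ± 2.23 CPM with vehicle and 55.25 ± 1.895 CPM with BPS (SD, n = 5 each, edgeR adjusted p 0.441). Pfkfb4 ranged from 4.06 to 9.43 CPM with vehicle and from 5.095 to 9.535 CPM with BPS. Its log2 fold change was 0.253 (standard error 0.22, edgeR adjusted p 0.598). Another transcript without a gene ran opposite to Pfkfb4 and was likewise picked after its values had been seen. The sum was 10.3 ± 0.482 and 10.3 ± 0.415 CPM, with a log2 fold change of 0.0082 (standard error 0.05, edgeR adjusted p 0.954).

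Lactate leaves through the transporters MCT1 and MCT4. Slc16a1 (MCT1) had 105 ± 2.68 CPM with vehicle and 108 ± 3.89 CPM with BPS (SD, n = 5 each, edgeR adjusted p 0.4). Slc16a3 (MCT4), the hypoxia-induced exporter, had 285, 283, 283, 279 and 294 CPM with vehicle and 266, 299, 272, 271 and 270.5 CPM with BPS. All BPS libraries but replicate 2 lay below all DMSO libraries. With all libraries the log2 fold change was -0.05 (standard error 0.03) and not called (edgeR adjusted p 0.448). Without BPS replicate 2 it was called lower (edgeR adjusted p 0.0451). With exact matching of transcript versions its log2 fold change shifted by 0.252, the largest shift of the 33 genes tested there. It was not called in that fit (edgeR adjusted p 0.203).

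Among the sensors, Hif1a, the regulated subunit itself, had 443.6, 430.6, 456, 444.5 and 414.4 CPM with vehicle and 412, 414, 437, 433 and 449 CPM with BPS. The ranges overlapped almost wholly, with a log2 fold change of -0.03 (standard error 0.03, edgeR adjusted p 0.657). HIF is regulated mostly through its protein, which was not measured. Egln1, the main oxygen-sensing prolyl hydroxylase, had 160.6 ± 4.38 and 159 ± 3.86 CPM (SD, n = 5 each). Egln3, a hydroxylase that is itself a HIF target, had 23.3, 25.1, 21.8, 22.1 and 24.8 CPM with vehicle and 21.9, 25.0, 21.6, 21.1 and 21.4 CPM with BPS. BPS replicate 2 was again above the other BPS libraries, and the adjusted p was 0.522 by edgeR.

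Bnip3 and Bnip3l encode receptors on the outer mitochondrial membrane that hand mitochondria to autophagy, and both fell. Bnip3 had 288, 285, 286, 278 and 286 CPM with vehicle and 262, 279.5, 269, 267 and 264 CPM with BPS. BPS replicate 2 just exceeded DMSO replicate 4, and the other BPS libraries lay below all DMSO libraries. Bnip3 fell by 5.80%, a log2 fold change of -0.09 (standard error 0.02, edgeR adjusted p 0.0232).

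Bnip3l had 188, 180.2, 183, 180.2 and 183 CPM with vehicle and 174, 173, 172, 178 and 175 CPM with BPS, with no overlap between groups. It fell by 4.60%, a log2 fold change of -0.07 (standard error 0.02, edgeR adjusted p 0.0361). The ratio of Bnip3 to Bnip3l within a library overlapped between groups (log2 difference -0.018, exact two-sided permutation p = 0.437). With unsummed transcripts neither gene was called, at an edgeR adjusted p of 0.168 for Bnip3 and 0.231 for the main transcript of Bnip3l. Bnip3 has 1 transcript, so its counts were the same in both tests. Both gene-level calls sat near the threshold. That of Bnip3 held in 11 of 20 alternatives (adjusted p 0.000522 to 0.136) and was lost without DMSO replicate 1, 2, 3 or 5 or BPS replicate 3, 4 or 5, and that of Bnip3l held in 8 of 20 (0.00352 to 0.107), lost without DMSO replicate 1, 2, 3 or 5 or BPS replicate 1, 2, 3 or 5.

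Adm moved the other way. It had 109.5, 116, 116, 114 and 111 CPM with vehicle and 119, 123, 128, 121 and 130.3 CPM with BPS, and every BPS library lay above every DMSO library. Adm rose by 9.76%, a log2 fold change of 0.13 (standard error 0.03, edgeR adjusted p 0.0184). The call held in 18 of 19 alternatives (adjusted p 0.000819 to 0.0705) and was lost when BPS replicates 4 and 5 were left out together (adjusted p = 0.0705). Under exact matching of transcript versions Adm could not be tested. Its 1 transcript, tested without summing and not among these alternatives, was not called (edgeR adjusted p 0.143). As with Gpi1, the counts of that transcript are those of the gene.

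**Figure D3:**
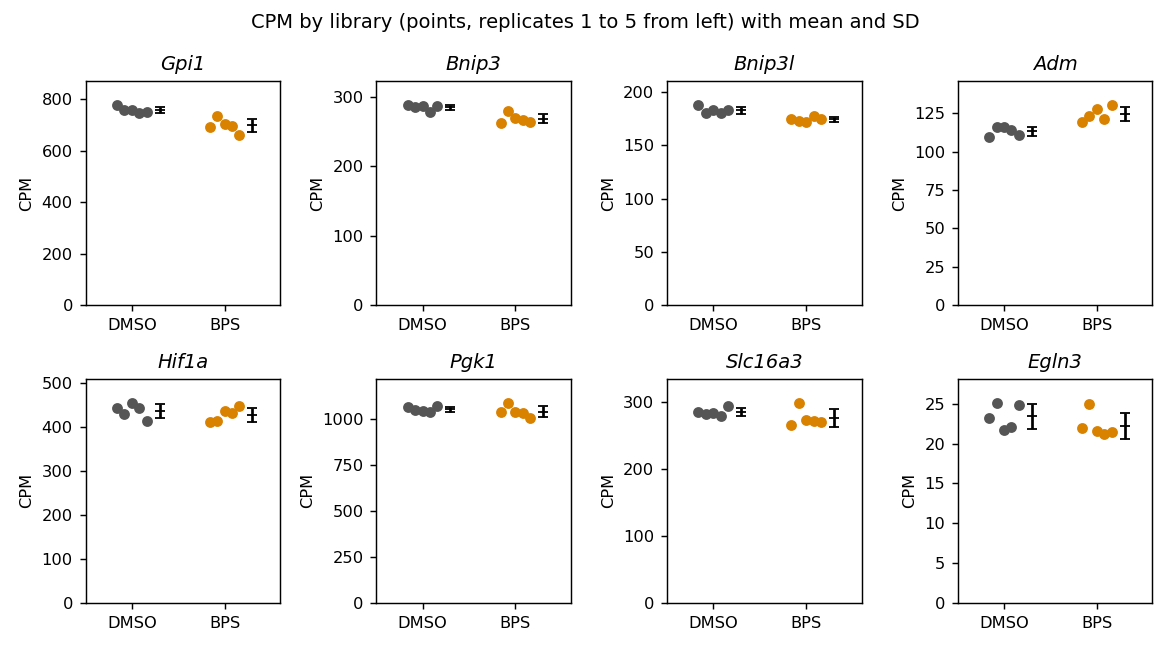
CPM in each library (vertical axis from 0) for the 4 called genes (top) and for Hif1a, Pgk1, Slc16a3 and Egln3 (bottom), with the mean and SD of each group. Gpi1, Bnip3l and Adm show separate groups, and in Slc16a3 and Egln3 BPS replicate 2 (299 and 25.0 CPM) lies above the other BPS libraries.

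The other HIF targets did not pass the test. Vegfa, the main blood vessel growth factor, had 346, 353.5, 353.5, 369 and 347 CPM with vehicle and 349.5, 357, 359, 359 and 365 CPM with BPS, a log2 fold change of 0.016 (standard error 0.020, edgeR adjusted p 0.731). Car9, the carbonic anhydrase often used to mark hypoxic cells, was barely expressed, at 0.668 to 1.34 CPM with vehicle and 0.872 to 1.18 CPM with BPS. With 26 counts in the lowest library, its 95% interval on the log2 scale ran from -0.40 to 0.41, so smaller changes were not detectable at this depth.

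Ankrd37, an ankyrin-repeat gene among the most HIF-responsive, had 8.52 ± 0.548 CPM with vehicle and 8.51 ± 0.596 CPM with BPS (SD, n = 5 each). P4ha1 and P4ha2, the collagen prolyl hydroxylase subunits, had 777 ± 7.27 and 246 ± 5.42 CPM with vehicle and 772 ± 16.6 and 244 ± 9.56 CPM with BPS. Ndrg1, a stress-induced growth inhibitor gene, had 42.95 ± 1.55 and 42.29 ± 2.36 CPM. Kdm3a, a histone H3K9 demethylase, varied most among these, from 42.5 to 52.6 CPM with vehicle and 35.6 to 50.4 CPM with BPS, with a log2 fold change of -0.15 (standard error 0.09, edgeR adjusted p 0.416).

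The libraries of the BPS group differed among themselves. BPS replicate 2 held the highest value of all 10 libraries for 15 of the 36 genes, BPS replicate 1 the lowest for 11 and BPS replicate 5 the lowest for 10. BPS replicate 2 was above the DMSO mean in 25 of 36 genes, while the other BPS libraries were below it in 23 to 28. The SD was larger in BPS than in DMSO for 27 of the 36 genes (75.0%), against 54.1% of all tested genes. The median coefficient of variation of the 36 genes was 2.5% in DMSO and 3.76% in BPS, and 5.01% and 5.39% over all tested genes. Without BPS replicate 2 the log2 fold change was negative in 29 of 36 genes, and without BPS replicates 4 and 5 together in 17 of 36. In that last fit edgeR called 0 of the 36, with 5 at an unadjusted p under 0.05 and a lowest adjusted p of 0.0705. It leaves 3 BPS libraries.

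**Figure D4:**
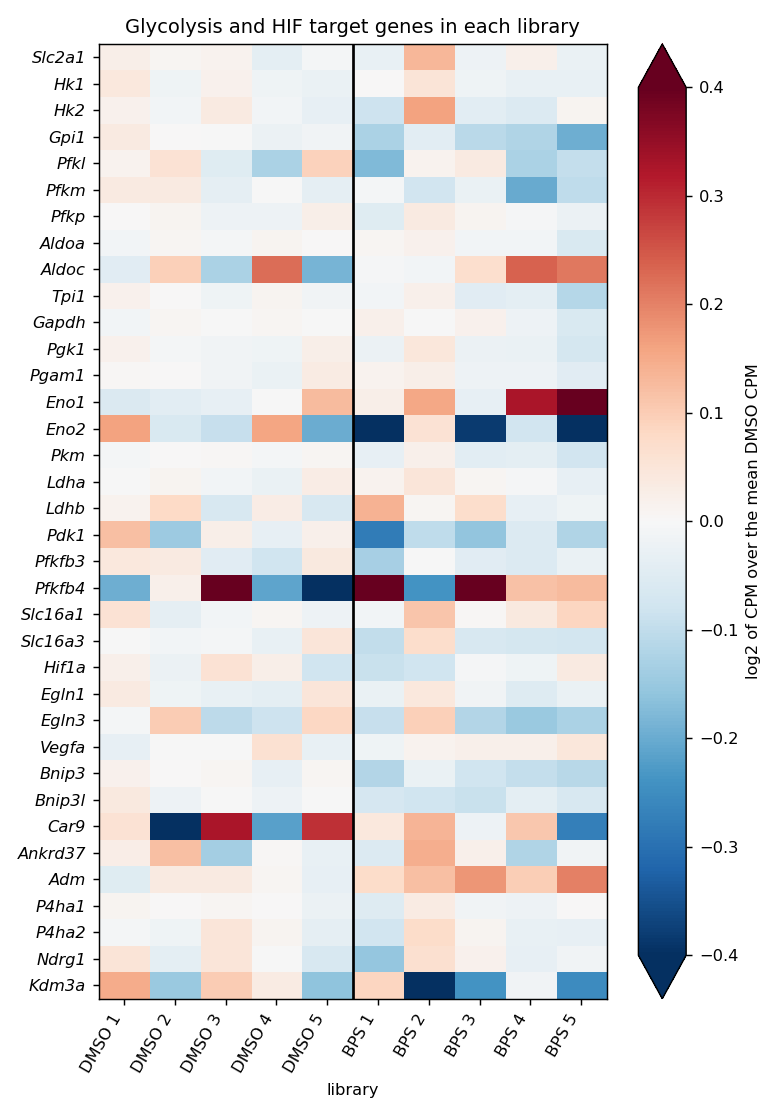
Log2 of the CPM over the mean DMSO CPM (colour) for the 36 genes (rows) in the 10 libraries (columns). Blue prevails in BPS replicates 1, 3, 4 and 5 (23 to 28 of 36 genes below the DMSO mean), and BPS replicate 2 has 11 of 36 below it. Values beyond ±0.4 share the end colours.

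Ratios within a library do not depend on the scaling between libraries, and 11 ratios of paired genes were compared by exact two-sided permutation tests, whose smallest possible p is 0.00794. No ratio passed the adjustment over the 11. Slc16a3 to Slc16a1 was 2.603, 2.76, 2.72, 2.64 and 2.84 in DMSO and 2.55, 2.64, 2.59, 2.51 and 2.43 in BPS (log2 difference -0.09, exact p = 0.0159, adjusted p = 0.0873). Eno2 to Eno1 differed by -0.51 on the log2 scale (exact p = 0.0159, adjusted p = 0.0873), and each of these genes had a transcript of no gene running opposite to it, as given above. Ldha to Ldhb was 85.4 to 95.6 in DMSO and 81.96 to 92.07 in BPS (exact p = 0.508). Hk2 to Hk1 (exact p = 0.944), P4ha2 to P4ha1 (exact p = 1), Egln3 to Egln1 (exact p = 0.198) and Pfkp to Pfkl (exact p = 0.183) overlapped between groups. Those of the other genes in the family had exact p of 0.794 (Pfkm to Pfkl), 0.238 (Aldoc to Aldoa) and 0.222 (Pfkfb4 to Pfkfb3). Adjusted over the 11, the p of the 9 ratios other than the first pair lay between 0.4365 and 1.

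The levels of the genes were compared per length, as CPM per kilobase, with the length of the best-counted among those RefSeq transcripts that had a GENCODE match. Gapdh stood highest, at 2048 ± 11.5 in DMSO (SD, n = 5), followed by Aldoa at 866 ± 5.80, Ldha at 811 ± 11.8, Pkm at 622 ± 3.07 and Pgk1 at 577 ± 7.58. Eno1, at 524 ± 27.8 in DMSO and 599.6 ± 84.6 in BPS, lay below Pgk1 in DMSO, while in BPS its SD spanned the level of Pgk1 (569 ± 16.4). The levels leave out the transcripts without a gene that ran opposite to Eno1, Eno2 and Pfkfb4. The one opposite to Eno1 had 884 CPM in DMSO, against 1062 CPM for Eno1, so the place of Eno1 in this order is uncertain. Hif1a lay in the middle at 92.7 ± 3.36, near Vegfa at 103 ± 2.71. Pfkfb3, Pdk1, Hk2 and Ldhb were close together, from 12.4 down to 11.03 in DMSO, and Hk2 and Ldhb differed by less than their SDs (11.07 ± 0.212 and 11.03 ± 0.484). Aldoc and Car9 were lowest, at 0.696 ± 0.0822 and 0.53 ± 0.138. The lengths are approximate where other transcripts held most of the counts, which was so for 11 genes. The transcript used held 36.4% of the counts of Aldoa, 26.2% for Pkm, 24.2% for Hif1a, 13.6% for Vegfa, 18.4% for Pfkfb3 and 47.7% for Ldhb. It held 46.4% for Pfkfb4, 16.7% for Hk1, 7.2% for Pfkp, 4.6% for P4ha1 and 4.4% for Slc16a3. Near-identical copies in GENCODE were found for 13 of the 36 genes, 77 of the 100 copies for Gapdh. The called genes Gpi1, Bnip3 and Bnip3l had 1, 5 and 1 such copies, for which the count table held no entry, so reads of a copy could be counted with the gene.

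**Figure D5:**
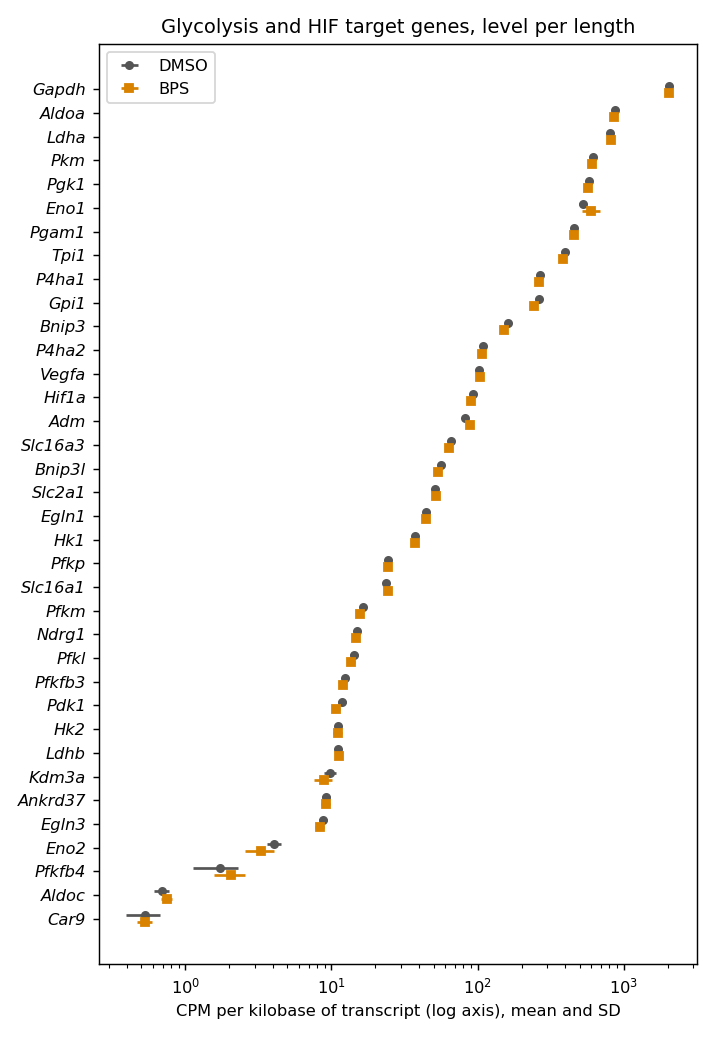
CPM per kilobase of transcript (log axis), mean and SD of 5 libraries, in DMSO (circles) and BPS (squares), ordered by the DMSO level. The levels run from 0.53 for Car9 to 2048 for Gapdh, and the symbols of both groups nearly coincide for most genes.

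Lists of further genes of the pathway gave the following counts. Of 17 tested HIF subunits and regulators 0 were called by edgeR, against 4.88% of all tested genes. At an unadjusted p under 0.05 there were 3, against 18.8% of all tested genes. limma-voom also called 0 and DESeq2 called 1, Cited2. Over all 14597 tested genes limma-voom called 695 and DESeq2 952. Epas1 (HIF-2 alpha) had 9.24 ± 0.339 CPM with vehicle and 9.43 ± 0.760 CPM with BPS, and Arnt 63.7 ± 4.60 and 61.5 ± 4.503 CPM (SD, n = 5 each, adjusted p = 0.852 and 0.707 by edgeR). Vhl, the ubiquitin ligase component that binds hydroxylated HIF, had a log2 fold change of -0.07 (standard error 0.03, adjusted p = 0.205), Egln2 one of 0.0081 (standard error 0.04, adjusted p = 0.937) and Hif1an, the asparagine hydroxylase, one of -0.04 (standard error 0.04, adjusted p = 0.623), all by edgeR. Cited2, a HIF-induced inhibitor of HIF's coactivator binding, was named after its values had been seen. It had 55.64 to 58.15 CPM with vehicle and 58.66 to 63.14 CPM with BPS, without overlap, and missed the threshold at an adjusted p of 0.0583 by edgeR. Of the 17 genes it was the 1 without overlap, against 6.9% of all tested genes in either direction.

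Of 31 tested genes on a list of other hypoxia-induced genes, 2 were called lower by edgeR (6.45%, against 4.88% of all genes called in either direction), and the median log2 fold change was -0.0039. Ddit4, an inhibitor of mTORC1 that also responds to glucocorticoids and other stress, had 167, 172, 180.2, 174 and 172 CPM with vehicle and 134, 160.5, 148, 136 and 145 CPM with BPS. No BPS library reached the DMSO range, and Ddit4 fell by 16.3% (log2 fold change -0.26, standard error 0.04, edgeR adjusted p 0.00607), a call held in 20 of 20 alternatives. Ccng2, a cyclin of growth arrest, fell by 6.10% (log2 fold change -0.09, standard error 0.02, edgeR adjusted p 0.0277), called in 10 of 20 alternatives. Leaving out DMSO replicate 1, 3, 4 or 5 or BPS replicate 2, 3 or 4 ended the call of Ccng2 (adjusted p 0.0517 to 0.07). In both calls every BPS library lay below the DMSO range. These were the only 2 of the 31 genes whose groups did not overlap. Of all tested genes 2.71% were separated in this direction and 6.9% in either.

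Of 15 tested further glycolytic genes, 1 was called higher and 1 lower by edgeR (13.3%, against 4.88% of all genes). Eno3, the muscle-type enolase, rose from 5.102 ± 0.363 to 6.242 ± 0.399 CPM (log2 fold change 0.29, standard error 0.07, adjusted p = 0.0332), and Pgm1, a phosphoglucomutase between glycogen and glycolysis, fell by 6.19% (log2 fold change -0.09, standard error 0.02, adjusted p = 0.0383), both by edgeR. They were called in 8 and 10 of 20 alternatives. That of Eno3 was lost without DMSO replicate 1, 3, 4 or 5 or BPS replicate 2, 3, 4 or 5 (adjusted p 0.0505 to 0.0746), and that of Pgm1 without DMSO replicate 1, 2, 3 or 5 or BPS replicate 1, 4 or 5 (0.0632 to 0.0844). The other 7 genes of that list, among them Pklr, Fbp1 and Fbp2, had too few counts to be tested. Of the 12 genes for pyruvate entry into mitochondria 0 were called by edgeR, limma-voom or DESeq2, where edgeR called 4.88% of all tested genes. At an unadjusted p under 0.05 by edgeR there was 1, against 18.8% of all tested genes. The median log2 fold change of the 12 was 0.0013.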

How the data were processed

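Estimated counts per RefSeq transcript were deposited, 1 column per library, made with kallisto 0.42.4 per the submitters' processing notes. The index, build and strand setting of the counting are not given in the sources used here. Accessions were matched without version to the RefSeq table of GRCm38.p6, which placed 86722 of 107384 transcripts, with 93.1% of the counts, in 32903 genes. The rest, 6.9%, stayed out of the gene tests. Counts were summed per gene, rounded, filtered with filterByExpr, scaled by TMM and tested with edgeR 4.0.16 (R 4.3.3) without covariates. Standard errors are the log2 fold change over the square root of F. Libraries within a group differed by at least 4.13 times the sampling noise, so none was a copy. The code was tested on simulated data.

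Alternatives used limma 3.58.1 and DESeq2 1.42.0, 2 other filters, 3 other scalings, a replicate block, exact versions, unsummed transcripts and left-out libraries. Unsummed transcripts are not among the alternatives counted for each gene. Copies of the genes were searched with BLASTN 2.17.0 (at least 95% identity over 300 bases). All 36 genes are given. They, the lists and the rule for naming (called genes, genes without overlap and fixed HIF genes in full) were chosen with earlier results of these data known. Of the listed pathway genes, 2 are not reported here and were left out of the list counts.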

Additional observations from a re-analysis of the deposited data

Results flagged for a closer look

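The spread within each group of 5 libraries was examined for the 36 genes and 10 named pathway genes, 92 groups in all. In 3 groups the gap between 1 library and its nearest neighbour exceeded the 95% limit of Dixon, 0.71 of the range, and chance gives about 1 in 20, or 4.6. All 3 concern BPS replicate 2, which was the highest BPS library in each. Slc16a3 stood there at 298.9 CPM and at 266.1 to 272.4 CPM in the other BPS libraries, and Egln3 at 24.99 CPM against 21.14 to 21.94 CPM. Eno3 stood at 6.922 CPM against 5.919 to 6.203 CPM, and it was no longer called without that library (edgeR adjusted p 0.074). That loss is not particular to BPS replicate 2, as the call of Eno3 held in 2 of 10 fits without a single library. A shared origin of the 3 values was not tested.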

How the results depend on the processing

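The number of the 36 genes called, 4 in the analysis reported, was 3 or 4 under every scaling, filter and other tool. It was 2 with the replicate block (Gpi1 and Adm), 2 with exact version matching, where Adm, Pfkl and Tpi1 could not be tested, and 2 to 4 when single libraries were left out (2 without DMSO replicate 1, 2, 3 or 5 or BPS replicate 3 or 5). It was 0 when BPS replicates 4 and 5 were left out together, a choice made after the data had been seen. Transcripts tested without summing gave 0 of 100 by edgeR (7 at an unadjusted p under 0.05), 0 by limma-voom and 5 by DESeq2. No share of all transcripts was computed at that unadjusted p. Over all genes, 712 were called in the analysis reported, 374 with the block, 328 with exact versions, 336 without BPS replicates 4 and 5, 126 of 37588 as transcripts (0.335%), and 449 to 774 without single libraries (449 without DMSO replicate 2, and 462, 465 and 462 without BPS replicates 2, 3 and 4). Of the 712 calls 62.8% were higher, and 45.9% of the calls with library size alone. The 3 other scalings called 688, 728 and 738 of 14597 genes, limma-voom 695 and DESeq2 952. Without a filter 550 of 24812 genes were called, and with the CPM filter 758 of 12492. It was not stated if the replicate numbers pair the libraries, and pairing was not tested. Correlations of deviations between libraries of the same number were 0.1, 0.0038, -0.067, 0.072 and -0.078. Of the 10 libraries, 4 correlated best, within the other group, with the library of their own number. With the block Bnip3 and Bnip3l lost their calls (adjusted p = 0.0674 and 0.107). Adm, Gpi1, Bnip3, Bnip3l, Ddit4, Ccng2, Eno3 and Pgm1 kept their direction in each alternative where they were tested. Of 881 recomputed values for genes and ratios that were not called, 3 gained a call: Cited2 with DESeq2 (adjusted p = 0.0488) and without BPS replicate 1 (0.048), and Slc16a3 without BPS replicate 2 (0.0451). Copies in the count table belonged to Eno1, Gapdh and Pfkp. The sums of Eno1 and Gapdh gained no call. For Pfkp the match was another protein-coding gene, Pitrm1 (100% identity over 748 bases), and no sum was made. No sum could be made for Pgk1, Tpi1, Ldha, Pgam1 and Pkm, whose copies the count table lacked. No copy of Aldoa was found. The lowest counts were those of Car9, Aldoc, Pfkfb4 and Eno2, at 26, 61, 146 and 230 in the lowest library.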

Other observations

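The core TNGCGTG, the element of the aryl hydrocarbon receptor with ARNT, contains GCGTG and was found on either strand in 4 of the 50 upstream windows (8.0%), against 4.1% of all 32851 windows. The genes were Eno1, P4ha1 (2 matches), Pfkl and Pfkp, and 0 of these 4 were called by edgeR, against 4.88% of all tested genes. At an unadjusted p under 0.05 this was 1 of them, Eno1, against 18.8% of all tested genes. DESeq2 and limma-voom called 0 as well. With only 4 genes, such counts cannot be told apart from those shares.

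The counts of some genes rested on transcripts that RefSeq lists as predicted. Predicted transcripts held 92.8% of the counts of Pfkp, 91.0% of those of Slc16a3, 90.8% of those of P4ha1 and 82.5% of those of Hk1. For P4ha1 and Pfkp, 90.8% and 85.5% of the counts lay on transcripts listed as non-coding. For Vegfa, with 10 transcripts, 3 of them shared a single estimate, 44.8 ± 0.636 CPM with vehicle and 45.6 ± 1.39 CPM with BPS (SD over 5 libraries), and 2 pairs of the others shared 1 estimate each, so transcripts within such a set could not be told apart by the authors' counting.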
